A study of Mus musculus with 6 samples.

Results

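The 10 genes described here are the 3 Scube genes and 7 core genes of the hedgehog pathway, Shh, Hhip, Ptch1, Smo, Gli1, Gli2 and Gli3. They were found by symbol among the 23420 genes of the count table, and all 10 had a row. The set was picked because Scube2 was higher in the mutant-labelled libraries, so the difference of Scube2 between genotypes is a description here and carries no test. RNA was sequenced from neocortex of mouse embryos at embryonic day 18.5, with 3 libraries labelled Tshz3 mutant and 3 labelled wild type. Each library came from a pool of 3 to 4 embryos out of several litters, and neither the strain nor the sex of the embryos is given in the sources used here. The kind of Tshz3 mutation, and whether it was confined to some cells, is also not given in them. Tshz3 encodes a teashirt transcription factor with zinc fingers.

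Hedgehog proteins are secreted signals that carry lipids, which tie them to the membrane of the cell that makes them. Dispatched and the secreted Scube proteins help to release the signal, and at the receiving cell it binds Patched, which otherwise holds the membrane protein Smoothened inactive. Active Smoothened works in the primary cilium and shifts the Gli transcription factors from repressor to activator forms, and Gli1, Ptch1 and Hhip are themselves transcribed in response. In the embryonic telencephalon Shh is made mainly ventrally, and Gli3, largely as a repressor, is needed for the dorsal part that becomes neocortex.

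The sequences of 3 members are shown because the results turn on them: Scube2, which differed between the genotypes, Scube1, its far more abundant relative, and Ptch1, which varied most among libraries. Each is the 250 bases before the RefSeq transcription start on GRCm38.p6, written 5′ to 3′ on the gene's own strand, and capitals mark GC boxes, GGGCGG or its reverse complement CCGCCC, which may overlap. The Scube2 window is chr7:109865680-109865929 on the minus strand, the Scube1 window chr15:83725040-83725289 on the minus strand and the Ptch1 window chr13:63565736-63565985 on the minus strand. The Ptch1 window lies inside the annotated Ptch1 gene, upstream of a start within it, and none of the 3 windows overlaps an annotated exon of its own gene.
Scube2: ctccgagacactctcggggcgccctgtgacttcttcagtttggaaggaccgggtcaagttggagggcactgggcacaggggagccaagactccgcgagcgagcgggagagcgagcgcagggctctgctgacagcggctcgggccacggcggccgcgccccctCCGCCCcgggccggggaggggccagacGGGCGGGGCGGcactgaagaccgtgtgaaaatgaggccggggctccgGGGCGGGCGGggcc
Scube1: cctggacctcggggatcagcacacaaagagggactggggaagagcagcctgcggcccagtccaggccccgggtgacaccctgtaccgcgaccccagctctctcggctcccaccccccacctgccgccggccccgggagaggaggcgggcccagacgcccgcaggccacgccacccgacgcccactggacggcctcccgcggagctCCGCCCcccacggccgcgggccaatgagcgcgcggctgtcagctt
Ptch1: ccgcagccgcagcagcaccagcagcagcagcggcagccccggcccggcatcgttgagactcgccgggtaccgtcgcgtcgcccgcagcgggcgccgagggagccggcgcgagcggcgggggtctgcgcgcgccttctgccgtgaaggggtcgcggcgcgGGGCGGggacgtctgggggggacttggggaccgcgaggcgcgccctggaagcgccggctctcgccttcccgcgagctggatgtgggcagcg

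The Scube2 window holds 5 GC box matches, whereas the Scube1 and Ptch1 windows hold 1 each. A match was present in 32.7% of all 32851 promoter windows of the same length. Its G and C content was 73.6% in Scube2, 75.2% in Scube1 and 78.4% in Ptch1, against a median of 52.4% over all windows. The core of the Gli binding site, searched as GACCACCC on both strands, had no match in the windows of the 8 members that RefSeq's table holds, and 0.703% of all windows had one. Shh and Gli1 have no entry in that table.

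Total counts ran from 19894144 to 24147810 in mutant-labelled libraries and from 18569383 to 21052832 in wild-type libraries. Tshz3 itself was at 89.8, 93.1 and 99.2 CPM (the count scaled to library size) in mutant-labelled libraries 1, 2 and 3, against 78.7, 83.0 and 89.3 CPM in wild-type libraries 1, 2 and 3. It was thus not lower in the mutant-labelled libraries, and its gene-level count does not check the labels. The 8 neocortical neuron markers, among them Neurod6, were above 1 CPM in every library and summed to 2380 to 2580 CPM in mutant-labelled and 2300 to 2550 CPM in wild-type libraries. With the block, 2 of these 8 were called higher in mutant-labelled libraries, among them Bcl11b by 0.15 on the log2 scale (edgeR adjusted p = 0.0478). The 9 markers of thalamus, hypothalamus and striatum summed to 84.6 to 92.0 CPM in mutant-labelled and 91.3 to 99.3 CPM in wild-type libraries, most of it from Ppp1r1b, at 58.5 to 69.8 CPM, while Hcrt and Sim1 were at or near 0. Libraries with the same number resembled each other across genotypes, so values are also given from a fit with the library number as a block, although the labels do not say what a number shares. The number-1 libraries stood apart in the 5 choroid plexus markers, which summed to 813 CPM in mutant-labelled 1 and 827 CPM in wild type 1, against 190 and 150 CPM in mutant-labelled 2 and 3 and 122 and 229 CPM in wild type 2 and 3.

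**Figure D1:**
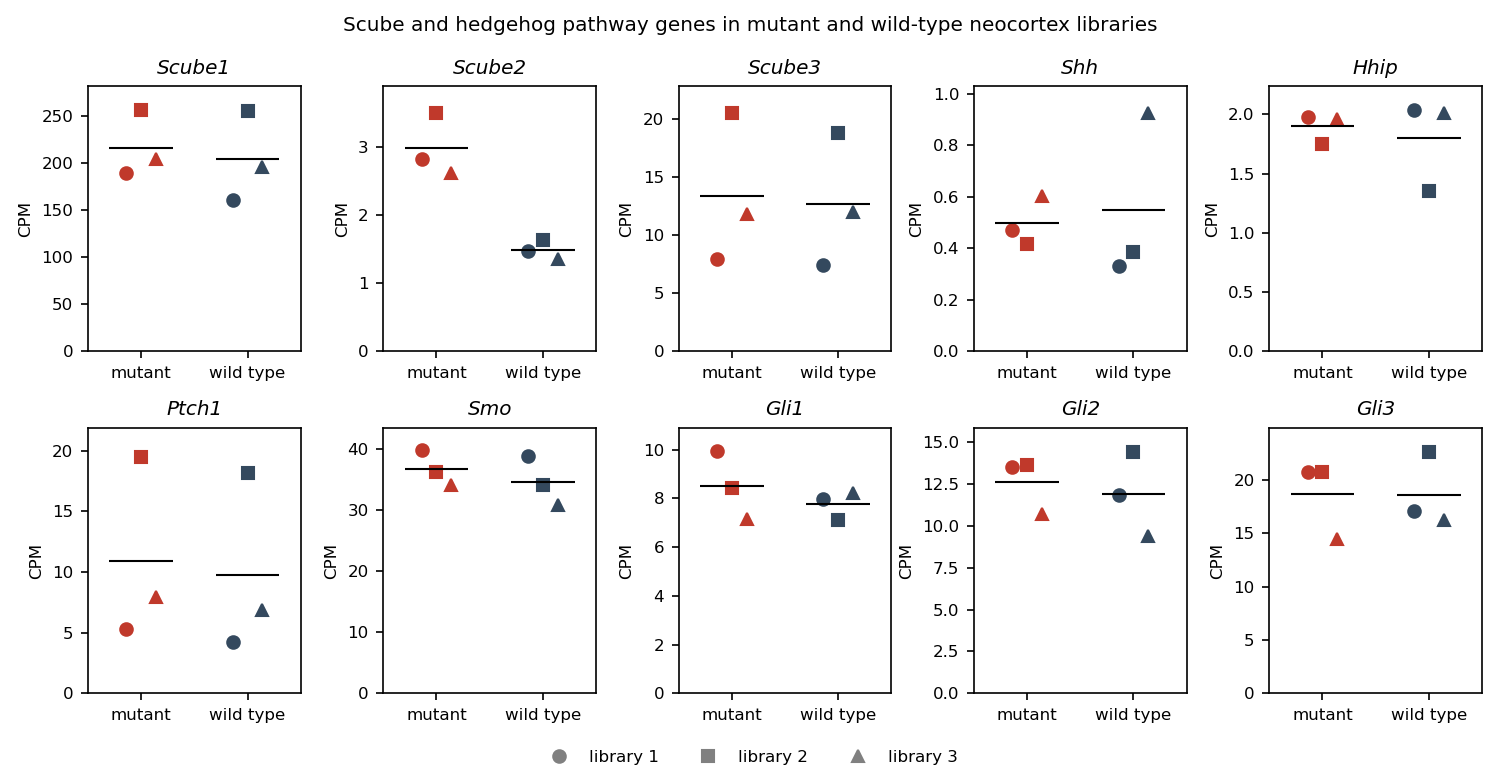
CPM of each of the 10 genes in the 3 mutant-labelled (red, left) and 3 wild-type (dark blue, right) libraries; symbols give the library number and lines the group mean. In the Scube2 panel every mutant-labelled library, at 2.62 CPM or more, lies above every wild-type library, at 1.64 CPM or less, and in the Ptch1 and Scube3 panels the number-2 library is the highest in each genotype.

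Scube2 was about 2 times as abundant in mutant-labelled neocortex, from a low level. It encodes a secreted protein with EGF-like repeats and a CUB domain that takes up Shh at the membrane of the producing cell. Scube2 was at 2.83, 3.50 and 2.62 CPM in mutant-labelled libraries 1, 2 and 3, against 1.47, 1.64 and 1.36 CPM in wild-type libraries 1, 2 and 3. Each mutant-labelled library lay above each wild-type library. Behind these levels stood 60, 84 and 52 reads in the mutant-labelled libraries and 31, 34 and 25 in the wild-type libraries. The nearest libraries of the 2 groups, mutant-labelled 3 and wild type 2, had exact 95% Poisson intervals of 38.8 to 68.2 and 23.5 to 47.5 reads, which overlap and cover counting error only.

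Within each library number the difference of Scube2 had nearly the same size. Mutant-labelled over wild type was 1.92-fold in the number-1 libraries, 2.13-fold in the number-2 libraries and 1.92-fold in the number-3 libraries. The log2 fold change was 1.00 without the block (SE 0.21, n = 3 per genotype) and 1.00 with it (SE 0.20). It ranged from 0.87 to 1.09 when each library was left out in turn. Scube2 was picked for its rise in these same libraries, so this evenness carries no test and is no support for the rise. Endothelial markers, which could mark vessels in the tissue, summed to 149, 135 and 116 CPM in mutant-labelled libraries 1, 2 and 3, against 156, 142 and 119 CPM in wild-type libraries 1, 2 and 3. Markers of meninges and fibroblasts summed to 228, 80.4 and 53.2 CPM in mutant-labelled libraries, against 284, 184 and 41.8 CPM in wild-type libraries. The part of vessels or meninges in the level of Scube2 was not tested. In bulk tissue more cells that make Scube2 and more Scube2 RNA per cell cannot be told apart.

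The other Scube genes overlapped between genotypes. Scube1, another secreted and cell-surface member of the family, was at 189, 256 and 204 CPM in mutant-labelled libraries 1, 2 and 3, against 161, 255 and 196 CPM in wild-type libraries 1, 2 and 3. Its log2 fold change was 0.09 (SE 0.18, 95% interval −0.35 to 0.53, edgeR adjusted p = 0.972), or 0.10 with the block (SE 0.05, adjusted p = 0.285). The number-2 libraries were highest in both genotypes and nearly equal to each other.

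Scube3 was at 7.92, 20.5 and 11.8 CPM in mutant-labelled libraries 1, 2 and 3, against 7.40, 18.8 and 12 CPM in wild-type libraries 1, 2 and 3. Its number-2 libraries were again the highest and its number-1 libraries the lowest, whatever the genotype. The log2 fold change of Scube3 was 0.08 (95% interval −0.98 to 1.14, edgeR adjusted p = 0.989), and with the block 0.07 (interval −0.14 to 0.28, adjusted p = 0.755). Without the block its sign turned when mutant-labelled library 2 (−0.37) or wild-type library 1 (−0.20) was left out. The sign of Scube1 turned without the same libraries (−0.051 and −0.061). Scube3 shares exon sequence with AC126937.2 on the other strand, so its count is uncertain too.

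Shh, the ligand, was close to the limit of detection. It had 10, 10 and 12 reads in mutant-labelled libraries 1, 2 and 3, against 7, 8 and 17 reads in wild-type libraries 1, 2 and 3, a sum of 32 reads in each genotype. As CPM these were 0.471, 0.417 and 0.604 in mutant-labelled and 0.332, 0.386 and 0.925 in wild-type libraries. The mutant-labelled values lay inside the wild-type range, and Shh did not pass the filter on low counts, so 9 of the 10 members were tested. Without that filter its log2 fold change was −0.12 with a 95% interval of −1.15 to 0.92, so a change of 2-fold lower was within what this depth allows. Exons of the antisense genes 9530036O11Rik and Gm26894 overlap those of Shh, and whether counting used strand is not given in the sources, so the count of Shh is uncertain.

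Hhip, a membrane protein that binds hedgehog ligands and limits their range, was also low. It was at 1.98, 1.75 and 1.96 CPM in mutant-labelled libraries 1, 2 and 3, against 2.04, 1.35 and 2.01 CPM in wild-type libraries 1, 2 and 3. The groups overlapped, and here the number-2 libraries were the lowest in both genotypes. The log2 fold change of Hhip was 0.08 (95% interval −0.46 to 0.61, edgeR adjusted p = 0.984), and it turned to −0.095 without wild-type library 2. An exon of Gm27820 on the other strand overlaps 175 of the 9074 exon bases of Hhip, so the part of its count from there is uncertain.

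Ptch1, the main hedgehog receptor and itself a target of the pathway, differed far more between library numbers than between genotypes. It was at 5.33, 19.5 and 7.96 CPM in mutant-labelled libraries 1, 2 and 3, against 4.27, 18.2 and 6.91 CPM in wild-type libraries 1, 2 and 3. The number-2 libraries were the highest and the number-1 libraries the lowest in each genotype. Library 2 was 2.94 times the mean of the other libraries among the mutant-labelled and 3.25 times among the wild type. The coefficient of variation of Ptch1 was 69.0% in mutant-labelled and 75.4% in wild-type libraries, where the median over 12790 genes whose log2 CPM averaged 1 or more was 6.25% and 8.44%.

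Because of that spread the comparison of genotypes for Ptch1 was imprecise without the block. Its log2 fold change was 0.17 with a 95% interval of −1.53 to 1.86 (edgeR adjusted p = 0.989). The sign turned without mutant-labelled library 2 (−0.56), wild-type library 1 (−0.20) or wild-type library 3 (−0.032). With the block the log2 fold change was 0.19 and the interval −0.05 to 0.42 (adjusted p = 0.4). Within the numbers, mutant-labelled over wild type was 1.25-fold, 1.07-fold and 1.15-fold for numbers 1, 2 and 3, so each pair was slightly higher in the mutant-labelled library without passing the test.

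Smo, the signal transducer that Patched inhibits, varied little next to Ptch1. It was at 39.8, 36.2 and 34.1 CPM in mutant-labelled libraries 1, 2 and 3, against 38.8, 34.1 and 30.9 CPM in wild-type libraries 1, 2 and 3. The groups overlapped, and the number-1 library was the highest in each genotype. The log2 fold change of Smo was 0.09 (95% interval −0.15 to 0.32, edgeR adjusted p = 0.937).

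Among the Gli factors, Gli1, an activator whose transcription is a common readout of pathway activity, did not pass the test. Gli1 was at 9.94, 8.42 and 7.15 CPM in mutant-labelled libraries 1, 2 and 3, against 7.97, 7.10 and 8.22 CPM in wild-type libraries 1, 2 and 3. The groups overlapped, with the highest and nearly the lowest value both among the mutant-labelled libraries. Its log2 fold change was 0.13 (95% interval −0.22 to 0.49, edgeR adjusted p = 0.934), or 0.13 with the block (interval −0.14 to 0.41, adjusted p = 0.645). A log2 change of 1.00, as for Scube2, lay outside both intervals of Gli1, while smaller changes in either direction lay inside them. Exons of Arhgap9 and Gm47200 on the other strand overlap 62 and 265 of the 4057 exon bases of Gli1. The part of its count from there is uncertain.

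Gli2, the main activator in the mouse embryo, was at 13.5, 13.6 and 10.7 CPM in mutant-labelled libraries 1, 2 and 3, against 11.8, 14.4 and 9.36 CPM in wild-type libraries 1, 2 and 3. Gli3 was at 20.7, 20.7 and 14.5 CPM in mutant-labelled libraries 1, 2 and 3, against 17.1, 22.6 and 16.2 CPM in wild-type libraries 1, 2 and 3. For both genes the genotypes overlapped, and for Gli2 and Gli3 the number-3 libraries were the lowest in each genotype. The log2 fold change of Gli2 was 0.09 (95% interval −0.32 to 0.50, edgeR adjusted p = 0.967), and it turned to −0.055 without wild-type library 3. That of Gli3 was 0.00 (interval −0.42 to 0.42, adjusted p = 0.998), and it was −0.079 without mutant-labelled library 1, −0.080 without mutant-labelled library 2, −0.059 without wild-type library 1 and −0.089 without wild-type library 3.

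**Figure D2:**
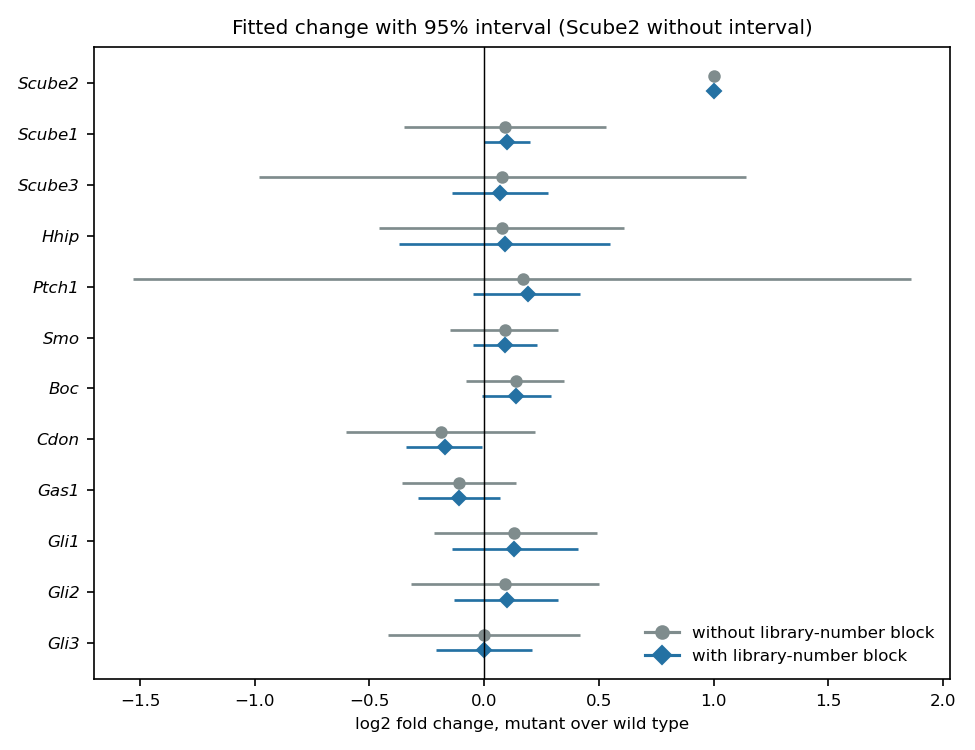
Fitted log2 fold change, mutant over wild type, of 9 members and 3 co-receptor genes, without (grey circles) and with (blue diamonds) the library number as a block; lines are 95% intervals, and Scube2 is drawn without one because it was picked for this difference. Scube2 is at 1.00 in both fits, and the widest interval, that of Ptch1, runs from −1.53 to 1.86 without the block and from −0.05 to 0.42 with it.

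Counted over the set, 0 of the 9 tested members passed an adjusted p of 0.05 in edgeR without the block, where 0.0752% of all 14618 tested genes did. At an unadjusted p under 0.05 the count was 1, Scube2, where 7.09% of all tested genes passed, and DESeq2 called 0 members and 0.719% of all genes it gave an adjusted p. With the block 1 member, Scube2, was called higher, where 1.97% of all tested genes were. Scube2 was also the only tested member whose genotypes did not overlap, against 13.5% of all tested genes in either direction. Nothing is read from these counts, because Scube2 was picked on this difference. The median log2 fold change was 0.09 over the 9 tested members and −0.01 over all tested genes.

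The members spanned a wide range of levels once scaled to length. Dividing CPM by the annotated exon length in kb put Scube1 first, with 39.3 ± 6.34 CPM per kb in mutant-labelled and 37.0 ± 8.60 CPM per kb in wild-type libraries (SD, n = 3 each). Smo followed with 9.72 ± 0.761 CPM per kb in mutant-labelled and 9.16 ± 1.05 CPM per kb in wild-type libraries, and neither Scube1 nor Smo overlapped its neighbour in the order in any library. Gli3, Gli1, Gli2, Scube3 and Ptch1 came next, with means over all 6 libraries of 2.24, 2.0, 1.84, 1.52 and 1.33 CPM per kb, and each of them overlapped the next.

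Scube2 was eighth in that order, at 0.796 ± 0.123 CPM per kb in mutant-labelled and 0.398 ± 0.0378 CPM per kb in wild-type libraries. Even in the mutant-labelled libraries its level per kb was thus a small part of that of Scube1. The lowest 2 were Hhip, at 0.209 ± 0.0141 CPM per kb in mutant-labelled and 0.199 ± 0.0429 CPM per kb in wild-type libraries, and Shh, at 0.175 ± 0.0339 CPM per kb in mutant-labelled and 0.192 ± 0.115 CPM per kb in wild-type libraries. Hhip and Shh overlapped each other and lay below Scube2 in every library. Ptch1 reached 2.50 and 2.33 CPM per kb in the number-2 libraries of mutant-labelled and wild type, against 0.683 and 0.547 CPM per kb in the number-1 libraries. Without the number-2 libraries the order of the means was the same, with Scube3 at 1.14 and Ptch1 at 0.784 CPM per kb.

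**Figure D3:**
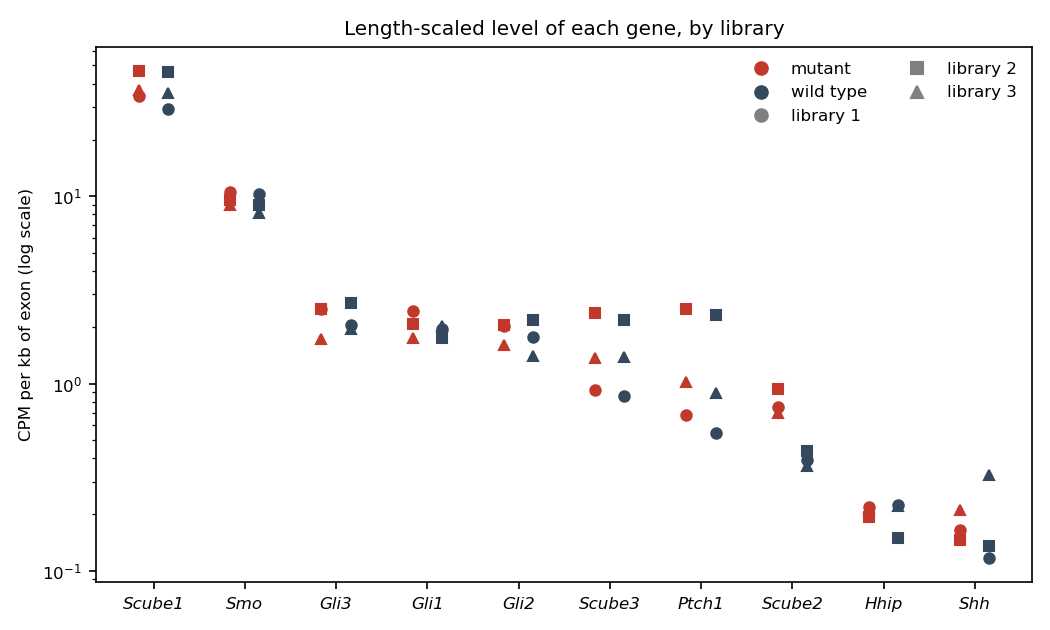
CPM per kb of annotated exon (log scale) of each of the 10 genes in each library, ordered by the mean over all libraries; red symbols on the left are mutant-labelled, dark blue on the right wild type, and the shape gives the library number. Scube1 stands near 38.2 CPM per kb, Scube2 splits by genotype, and Scube3 and Ptch1 spread by library number.

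The spread by library number moved with the length of the transcripts. Annotated exons covered 7.80 kb of Ptch1 and 8.61 kb of Scube3, against 3.75 kb of Scube2, 3.78 kb of Smo and 4.06 kb of Gli1. Over all genes whose log2 CPM averaged 1 or more and whose exon length is annotated, number-2 libraries minus the others had a median log2 difference of −0.08 for 2410 genes under 2 kb, 0.03 for 2868 genes of 4 to 6 kb and 0.25 for 961 genes over 8 kb. Both number-2 libraries were the highest of the 6 in 1.87% of genes under 2 kb and in 61.2% of genes over 8 kb. The difference was 1.65 for Ptch1, 1.03 for Scube3 and 0.45 for Scube1, so these members lay beyond the middle of the genes of their length.

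Among the other long members, Gli3, with 8.33 kb of exons, had a difference of 0.35, between the quartiles of its length class, while Hhip, with 9.07 kb, went against the trend at −0.36. The shorter Smo and Gli1 had differences of −0.02 and −0.09. Scube2, also short, had a difference of 0.28, above the upper quartile of 0.02 for genes of 2 to 4 kb. Ptch1 ranked 49 and Scube3 127 among 12790 genes for the size of this increase. Gpr161, a ciliary receptor that holds the pathway back and no member of the set, was looked at after its values were seen and ranked 8. It was at 1.74, 20.8 and 6.45 CPM in mutant-labelled libraries 1, 2 and 3, against 1.90, 23.7 and 4.84 CPM in wild-type libraries 1, 2 and 3. The genotype fold change showed no such trend with length, with medians from −0.02 to 0.01 over the 5 length classes. The part of transcript length, RNA quality or library preparation in the levels of Ptch1, Scube3 and Gpr161 was not tested.

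**Figure D4:**
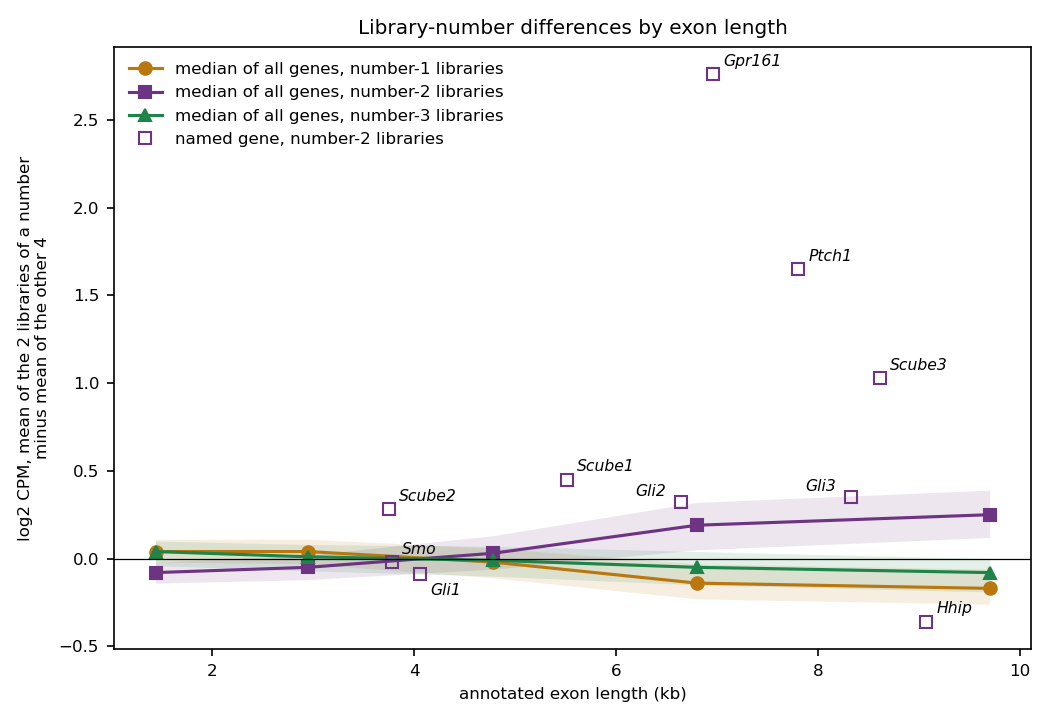
Log2 CPM of the 2 libraries of a number minus that of the other 4, against annotated exon length in kb; lines and filled symbols are medians over all genes in 5 length classes, bands run between the quartiles, and open squares are the tested members and Gpr161 for the number-2 libraries. The number-2 median climbs from −0.08 to 0.25 with length, and Gpr161 at 2.76, Ptch1 at 1.65 and Scube3 at 1.03 lie above the band.

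The wider pathway was described through 5 lists with 81 different genes, of which 79 were tested. Scube2 is 1 of these and is left out of the counts that follow, since the set was picked on it. In edgeR without the block 0 of the other 78 passed, with 6 at an unadjusted p under 0.05, and DESeq2 also called 0. With the block 2 rose, Rab23 and Lrp2, and none fell, which is 2.56% of the 78 against 3.46% of all tested genes. The median log2 fold change of the 78 was 0.03, against −0.01 over all tested genes.

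Rab23, a small GTPase that restrains hedgehog signalling in the mouse embryo, was at 55.1, 56.9 and 52.5 CPM in mutant-labelled libraries 1, 2 and 3, against 44.5, 49.9 and 40.2 CPM in wild-type libraries 1, 2 and 3. Every mutant-labelled library lay above every wild-type library. Its log2 fold change with the block was 0.29 (SE 0.06, edgeR adjusted p = 0.016), and without the block it was the same with an adjusted p of 0.481.

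Lrp2, or megalin, an endocytic receptor that binds Shh among many ligands, was at 4.81, 4.96 and 3.68 CPM in mutant-labelled libraries 1, 2 and 3, against 2.80, 3.77 and 2.01 CPM in wild-type libraries 1, 2 and 3. The groups overlapped by a little, since the lowest mutant-labelled library lay below wild type 2. Its log2 fold change with the block was 0.65 (SE 0.17, edgeR adjusted p = 0.0449), with an adjusted p of 0.652 without the block. Choroid plexus also makes Lrp2, and its 5 markers summed to 813, 190 and 150 CPM in mutant-labelled libraries 1, 2 and 3, against 827, 122 and 229 CPM in wild-type libraries 1, 2 and 3, higher in the mutant-labelled library in number 2 only. Their part in the result was not tested.

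By role, the 10 tested genes of ligand production and release other than Scube2 had a median log2 fold change of 0.04, and 0 of them reached an unadjusted p under 0.05 in edgeR in either fit. The 8 receptors and co-receptors had a median of 0.11. Of these Lrp2 alone was called, only in the fit with the block, where 3.46% of all tested genes were called. Of the 20 Gli factors and regulators and the 18 genes often used as hedgehog targets, none passed in edgeR with or without the block, with medians of 0.01 and 0.04, and 3 genes of each list had an unadjusted p under 0.05 with the block, where 17.9% of all tested genes did. Of 26 primary cilium genes only Rab23 passed with the block, at a median of 0.03.

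The ligand co-receptors Boc, Cdon and Gas1 did not pass edgeR's test in either fit. Boc, a co-receptor known in cortex for its role in wiring of callosal neurons, averaged 32.3 ± 2.38 CPM in mutant-labelled and 29.4 ± 2.85 CPM in wild-type libraries (SD over 3 libraries each), a log2 fold change of 0.14 (95% interval −0.08 to 0.35). Its relative Cdon averaged 59.0 ± 6.82 CPM in mutant-labelled and 67.2 ± 16.6 CPM in wild-type libraries, with wild-type library 2 the highest at 86.4 CPM. The log2 fold change of Cdon was −0.19 (interval −0.60 to 0.22). With the block it was −0.17, with an interval of −0.34 to −0.01 that left out 0 (edgeR adjusted p = 0.261). Gas1, a membrane-anchored co-receptor, averaged 19.0 ± 1.16 CPM in mutant-labelled and 20.5 ± 2.49 CPM in wild-type libraries, a log2 fold change of −0.11 (interval −0.36 to 0.14).

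The genes whose pattern over the 6 libraries was nearest to that of Scube2 were Rspo2, Sertm1, Acvr1c, 1600014C10Rik and Hs3st3b1. Likeness was the root mean square difference of log2 CPM, centred on each gene's mean, and these 5 of 12790 genes had values of 0.130, 0.153, 0.158, 0.193 and 0.203. Rspo2, the nearest, was at 25.3, 25.3 and 22.2 CPM in mutant-labelled libraries 1, 2 and 3, against 13.9, 13.9 and 13.5 CPM in wild-type libraries 1, 2 and 3. Acvr1c, an activin receptor gene, was at 6.83, 7.51 and 6.55 CPM in mutant-labelled libraries, against 3.22, 4.83 and 2.94 CPM in wild-type libraries, and shared with Scube2 a highest value in number 2 of each genotype. All 5 were higher in each mutant-labelled library than in each wild-type library, as their likeness to Scube2 entails.

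On GRCm38, Scube2 lies on chromosome 7 from 109798676 to 109865679, the chromosome that also holds Tshz3, at 36698118 to 36773553. Scube1 lies on chromosome 15 from 83604999 to 83725021 and Scube3 on chromosome 17 from 28142141 to 28174854. Shh lies on chromosome 5 from 28456815 to 28467256, Hhip on chromosome 8 from 79965851 to 80058006 and Smo on chromosome 6 from 29735503 to 29761365. Chromosome 13 holds Ptch1, at 63508328 to 63573598, and Gli3, at 15463235 to 15730026. Gli1 lies on chromosome 10 from 127329882 to 127341974 and Gli2 on chromosome 1 from 118834132 to 119053619. These spans include introns, and each gene has a single count.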

How the data were processed

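The authors deposited 1 table of raw counts per gene for 6 libraries, as whole numbers that were not normalized, and its columns were matched to samples by title, with 0 columns unused. The RNA kit kept strand (TruSeq Stranded), per the labels' protocols. Build mm10 and the tools HTSeq 0.5.3p9, Bowtie2 2.1.0, TopHat2 2.0.9 and CASAVA 1.8.2 are listed in the submitters' processing notes, and their settings and the annotation are not given in the sources.

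The tests used edgeR 4.0.16 in R 4.3.3: its quasi-likelihood test (two-sided, robust) after TMM scaling and the default expression filter, with Benjamini-Hochberg adjustment over 14618 genes at 0.05. Standard errors and 95% intervals came from the F statistic. Alternatives were DESeq2 1.42.0, other scaling, no filter, libraries left out, and the library number as a block. The fits were tested on simulated counts that held no differences shared by a library number. That test thus cannot decide between the fits with and without the block. Exon lengths are unions of exons in GENCODE M21 (GRCm38), found by symbol for 94.3% of 12790 genes, and promoters are RefSeq's on GRCm38.p6.

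For the pairing check, deviations from group means correlated at 0.614, 0.514 and 0.467 between libraries of the same number, above the bound of 0.1, so blocked values are also given. This pairing comes from the data alone, since the labels do not say what a number shares. Libraries of 1 genotype differed from each other beyond sampling noise (chi-square per degree of freedom 7.13 to 23.1), so none was a copy. Each library is a separate pool of embryos, and p-values without the block measure the spread between pools. With the block they measure the spread left after differences shared by a library number are taken out.

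The members and gene lists were chosen with earlier results of these data known. Named were all 10 members, list genes called in either fit, Tshz3, the co-receptors Boc, Cdon and Gas1, and the 5 genes nearest to Scube2, while Gpr161 was added after its values were seen.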

Additional observations from a re-analysis of the deposited data

How the results depend on the processing

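No member other than Scube2 was called under any setting run, and Scube2 only with the replicate block. Its log2 fold change stayed between 0.87 and 1.09 in all 13 alternative settings. That is a description only, since Scube2 was picked for its rise in these libraries. The number of members called was 0 in each edgeR and DESeq2 fit except with the replicate block, where it was 1. For the wider hedgehog lists, with Scube2 among them, it was 3 with the block and 0 otherwise, with 1 to 13 genes at an unadjusted p under 0.05 in the fits without it. The count over all genes, 11, was 20 without a filter on low counts, 102 with DESeq2 and 506 with the replicate block. It was 3 to 35 with single libraries left out, the highest without wild-type library 2. With both number-1, number-2 or number-3 libraries left out, settings chosen after seeing the data, edgeR called 2, 3 and 0 genes, the last with 442 at an unadjusted p under 0.05.

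Signs of uncalled members turned with single libraries left out, over ranges of −0.061 to 0.28 for Scube1, −0.37 to 0.48 for Scube3, −0.56 to 0.98 for Ptch1, −0.055 to 0.26 for Gli2, −0.089 to 0.16 for Gli3 and −0.095 to 0.18 for Hhip. Gli3 was −0.14 without the number-1 libraries and Hhip −0.039 without the number-2 libraries. The cause was not tested. The depth limits Shh, Hhip and Scube2, with 7 to 84 reads a library.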

Other observations

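The library-number pattern of Ptch1 and Scube3 was shared with genes of other kinds, picked by the same measure of likeness after the pattern had been seen. Nearest to Ptch1 were Dpy19l4, Klhl28, N4bp2, Arid5b and Cers6, at root mean square differences of 0.078 to 0.139 in centred log2 CPM. Klhl28 was at 3.63, 14.3 and 6.40 CPM in mutant-labelled libraries 1, 2 and 3, against 2.99, 13.8 and 4.74 CPM in wild-type libraries 1, 2 and 3. Cers6, a ceramide synthase gene, was at 14, 42.2 and 19 CPM in mutant-labelled libraries, against 12, 52.3 and 18.5 CPM in wild-type libraries. In both genes the number-2 libraries stood far above the rest. Nearest to Scube3 were Gatsl2, Tbck, Megf9, Snx29 and Htr2a, at 0.0755 to 0.124. Megf9 was at 15.6, 45.3 and 28.7 CPM in mutant-labelled libraries, against 14.4, 42.9 and 27.8 CPM in wild-type libraries. A rise in the number-2 libraries by more than 1 on the log2 scale was found for 137 of 12790 genes.

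Markers of meninges and fibroblasts also varied between pools, with sums of 228, 80.4 and 53.2 CPM in mutant-labelled libraries 1, 2 and 3, against 284, 184 and 41.8 CPM in wild-type libraries 1, 2 and 3. The collagen gene Col1a2 alone was at 82.2, 26.2 and 15.4 CPM in mutant-labelled and 107, 70.2 and 12.4 CPM in wild-type libraries. Markers of the oligodendrocyte lineage, cells that respond to hedgehog signals, were even, at 172 to 186 CPM in mutant-labelled and 173 to 183 CPM in wild-type libraries.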
